A study of Mus musculus with 36 samples.

Results

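The genes described here are 5 simple keratins (Krt7, Krt8, Krt18, Krt19 and Krt20) and 5 desmosome genes (Dsp, Dsg2, Dsc2, Pkp2 and Jup). They were taken by gene name and make up 10 of the 20960 distinct gene names in the 3 expression tables of the series. Each of the 10 had a row in all 3 tables, and each passed the filter on low values in both replicated tables. Levels were measured by RNA-seq in 20 mouse libraries that follow TGFβ signalling and Rreb1, a gene for a zinc finger transcription factor, in cancer cells, pancreatic organoids and differentiating stem cells. KSIC_806 cells, a pancreatic ductal adenocarcinoma (PDA) line, were labelled WT or KO for RREB1 and received the TGFβ receptor inhibitor SB505124 (2.5 µM for 6 h) or TGFβ (100 pM for 1.5 h), with 2 libraries per group. Inhibitor and ligand thus differed in duration as well as in kind. All PDA libraries also carry the mark S4, whose meaning was not given in the sources used here. E14 cells, a mouse embryonic stem cell line, were taken undifferentiated at day 0 and as day 4 embryoid bodies (EBs, aggregates of differentiating stem cells), each with 2 libraries labelled WT and 2 labelled KO. CIY pancreatic organoids were given SB505124 or TGFβ, at the same doses and times, without doxycycline or with 1 µg/mL doxycycline from plating, with 1 library per condition. Neither the construct that doxycycline acts on nor the way the KO lines were made, or whether each is a single clone, was given in the sources used here.

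Simple keratins form the intermediate filaments of single-layered epithelia. A type II keratin (Krt7, Krt8) pairs with a type I keratin (Krt18, Krt19, Krt20), the unpaired partner is unstable as a protein, and Krt8 with Krt18 is the pair that appears first in the mouse embryo. Desmosomes fasten these filaments to the plasma membrane: the cadherins Dsg2 and Dsc2 span the membrane, plakoglobin (Jup) and plakophilin 2 (Pkp2) bind their tails, and desmoplakin (Dsp) links this plaque to the keratins.

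Recovered depth was 38728354 to 44504338 reads in 7 PDA libraries and 20410770 in KO SB replicate 1, 19885697 to 29082712 in the E14 libraries and 23914870 to 35808735 in the organoid libraries. Rreb1 itself differed between the labels, but not in 1 direction: in the PDA cells labelled WT it was 1458 and 1501 under SB and 4293 and 4212 under TGFβ, and in those labelled KO it was 2164 and 2195 under SB and 2886 and 2560 under TGFβ. In the E14 libraries it was 1085 and 1019 in WT day 0, 1482 and 1586 in WT day 4, 2642 and 2830 in KO day 0, and 1921 and 1512 in KO day 4. KO against WT (limma), its log2 fold change was 0.56 under SB (adjusted p = 0.000564) and -0.65 under TGFβ (adjusted p = 0.000364). It was 1.38 at day 0 (adjusted p = 2.35e-08) and 0.15 at day 4 (adjusted p = 0.198). These counts over the whole gene do not show which part was deleted, so WT and KO below are the labels of the libraries, and every direction between them rests on those labels. Whether replicates were separate cultures was not stated, and if they were not, p-values cover only technical spread between libraries. Values are the deposited normalized counts. Tables were normalized separately, and counts were not divided by transcript length, so a level is compared between libraries of 1 table and not between genes. In the labelled cells, none of 8 duct markers (Krt19 and Cdh1 among them) was at 0 throughout a PDA or organoid group. The same held in the E14 groups, where they summed to 21220 to 29610, so a level above 0 does not tell the cells apart. None of 7 pluripotency markers was at 0 throughout an E14 group. In the organoid table, the 4 islet markers present of 7 listed summed to at most 1.13. Acinar markers there (6 of 7 listed) summed to 183 to 405, and immune markers (5 of 6 listed) to 430 to 969.

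Krt8 and Krt18 are neighbours on mouse chromosome 15 (build GRCm38.p6). Krt8 lies at 101996711 to 102004342 on the minus strand and Krt18 at 102028216 to 102032026 on the plus strand, so they are transcribed away from each other from starts 23.9 kb apart. Dsp (chromosome 13, 38151294 to 38198577) lies 199 kb from Rreb1, and Krt20 (chromosome 11, 99428385 to 99438153) lies 703 kb from Krt19. The 250 bases before the start are shown for the keratin pair, whose members parted company in the EBs, and for Krt20 and Dsp, which rose with TGFβ in the PDA cells. All are from RefSeq (GRCm38.p6), 5′ to 3′ on the gene's strand, at chr15:102004343-102004592 (minus strand), chr15:102027966-102028215 (plus), chr11:99438154-99438403 (minus) and chr13:38151044-38151293 (plus), in the order printed.
Krt8: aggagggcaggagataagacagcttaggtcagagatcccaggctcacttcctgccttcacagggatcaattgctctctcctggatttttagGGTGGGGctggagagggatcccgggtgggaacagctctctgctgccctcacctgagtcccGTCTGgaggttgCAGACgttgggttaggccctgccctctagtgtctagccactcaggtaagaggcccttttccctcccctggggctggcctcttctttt
Krt18: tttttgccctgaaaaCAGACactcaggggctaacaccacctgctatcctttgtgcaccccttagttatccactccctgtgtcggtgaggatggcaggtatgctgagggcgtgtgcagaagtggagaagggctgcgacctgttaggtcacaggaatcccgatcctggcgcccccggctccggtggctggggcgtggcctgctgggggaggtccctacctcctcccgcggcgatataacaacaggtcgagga
Krt20: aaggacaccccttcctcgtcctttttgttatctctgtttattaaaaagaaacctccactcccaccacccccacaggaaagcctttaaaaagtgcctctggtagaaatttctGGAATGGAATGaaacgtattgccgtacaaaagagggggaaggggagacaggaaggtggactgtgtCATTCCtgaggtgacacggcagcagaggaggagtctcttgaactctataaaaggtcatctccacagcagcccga
Dsp: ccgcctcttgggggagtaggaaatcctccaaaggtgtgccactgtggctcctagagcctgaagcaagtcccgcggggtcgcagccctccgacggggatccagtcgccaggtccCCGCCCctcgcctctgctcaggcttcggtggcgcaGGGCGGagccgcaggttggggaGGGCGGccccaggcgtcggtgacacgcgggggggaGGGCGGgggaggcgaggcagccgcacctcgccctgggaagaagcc
Capitals mark strings searched on both strands: the SMAD box CAGAC, the TEAD string GGAATG, the GC box GGGCGG, and the C-rich string CCCCACC. The AP-1 string TGANTCA was searched too and is in none of the 4 windows, and the E-box CANNTG was searched but is not capitalised. Krt8 held 2 SMAD boxes and 1 CCCCACC, and Krt18 held 1 SMAD box. Krt20 held 3 TEAD strings, of which the first 2 share 1 base, and Dsp held 4 GC boxes. Among 32851 RefSeq promoter windows of the same length, 42.2% held the SMAD box, 12.6% the TEAD string, 32.7% the GC box, 14.1% CCCCACC, 6.75% the AP-1 string and 66.2% an E-box. A match is a run of letters and not a binding site. Windows for 6 of the 10 genes were matched by symbol. Of those not printed, Jup, which also rose with TGFβ in the WT PDA cells, held 2 GC boxes and no SMAD box or TEAD string. Krt7, which did not pass there, held 1 SMAD box, 4 GC boxes and 1 CCCCACC. A link between the strings and any response was not tested.

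Krt8 and Krt18 rose together when the WT stem cells formed EBs. Krt18 was 831 and 928 at day 0 and 6268 and 5861 at day 4. Krt8 was 707 and 831 at day 0 and 4878 and 5291 at day 4. Replicates lay close together and the days did not overlap for either gene: Krt18 rose 6.89-fold (log2 fold change 2.79 ± 0.09 SE, limma adjusted p = 1.35e-11) and Krt8 rose 6.61-fold (2.73 ± 0.09, adjusted p = 1.15e-11). Krt19, another type I keratin, was 377 and 464 at day 0 and 1817 and 1214 at day 4, and rose with a log2 fold change of 1.83 ± 0.17 (adjusted p = 4.01e-07). Of the 10 genes 6 rose and 1 fell in the WT EBs, where 63.1% of the 15227 genes tested were called (32.3% higher and 30.8% lower), so the count is near the background.

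**Figure D1:**
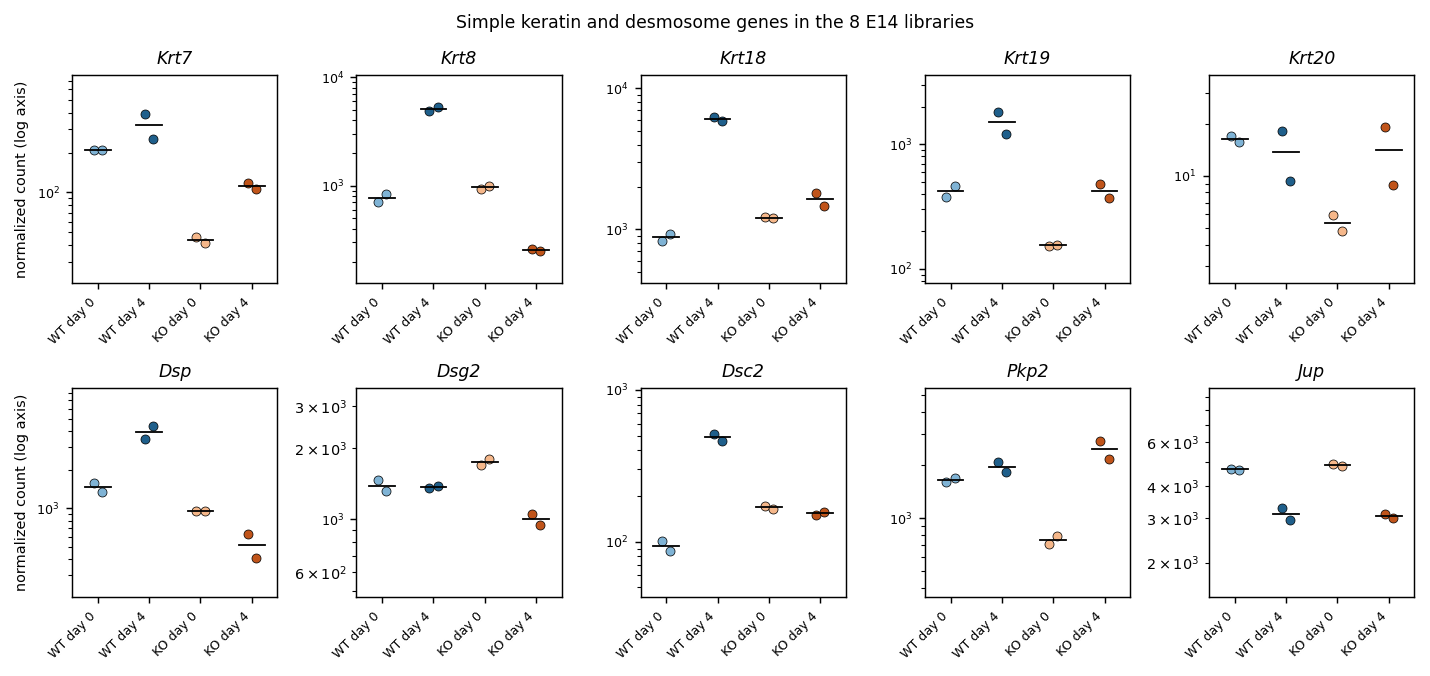
Normalized count (log axis, its range set per gene) of each of the 10 genes in the 8 E14 libraries, by label and day; points are libraries and bars are means of 2. In the KO day 4 libraries Krt8 lies at 263 and 252, under every other group, while Krt18 lies at 1821 and 1473, above both day 0 groups.

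In the EBs labelled KO the pair came apart. Krt8 fell from 939 and 987 at day 0 to 263 and 252 at day 4, below its level in any other E14 library (log2 fold change -1.90 ± 0.09, adjusted p = 4.92e-10). Krt18 rose from 1232 and 1197 to 1821 and 1473 (0.43 ± 0.09, adjusted p = 0.00117). The KO change of Krt8 differed from the WT change by -4.63 ± 0.13 on the log2 scale (limma interaction, adjusted p = 1.65e-11), and that of Krt18 by -2.35 ± 0.13 (adjusted p = 6.11e-09). At day 4 Krt8 was 19.8-fold lower in KO than in WT EBs and Krt18 was 3.68-fold lower. By log2 fold change between the day 4 groups (-4.30 ± 0.09, adjusted p = 3.52e-13), 165 of the 15227 genes tested lay below Krt8.

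The ratio of Krt8 to Krt18 shows this in each library, and since both genes are divided within a library it does not depend on the library's scaling factor. The 18 other libraries lay between 0.762 and 1.56 with a median of 1.07, while the KO day 4 EBs were at 0.144 and 0.171. In the E14 libraries the mean ratio was 0.873 ± 0.032 in WT day 0, 0.841 ± 0.088 in WT day 4, 0.793 ± 0.044 in KO day 0 and 0.158 ± 0.019 in KO day 4 (SD, n = 2 each). The WT day 4 libraries overlapped both day 0 groups, and the KO day 4 libraries lay below all 6 others. No test was run on the ratio. Other genes within 100 kb of the pair were looked at after the values were seen, if they passed the filter and were matched by symbol. KO against WT at day 4 gave a log2 fold change of -0.63 for the keratin gene Krt79, 0.0765 for Eif4b, a translation initiation factor gene, and -0.0433 for Spryd3. A Krt8 pseudogene is annotated in the mouse genome and how reads matching both were counted is not given, so a share of the Krt8 counts is uncertain.

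**Figure D2:**
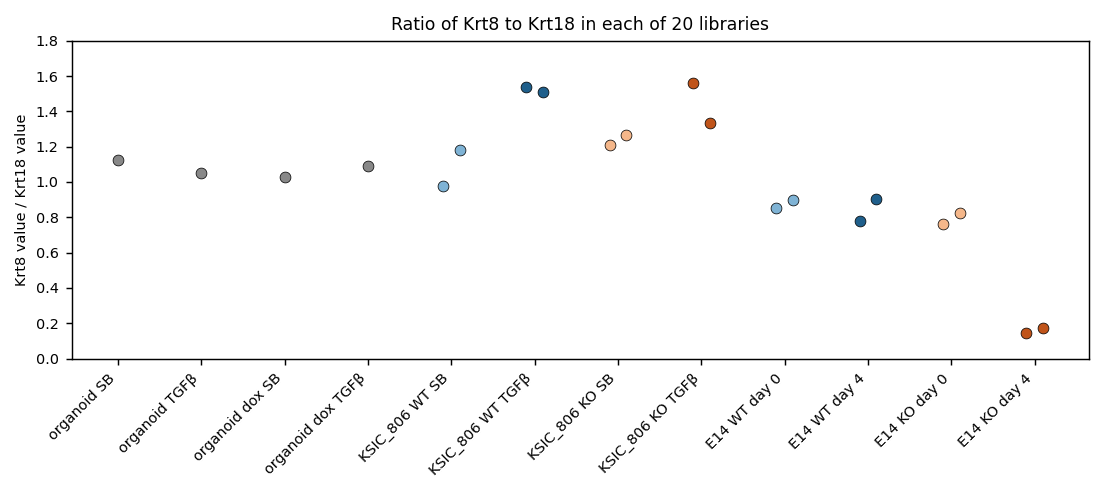
Krt8 value divided by Krt18 value in each of the 20 libraries (points), grouped by culture and condition. The KO day 4 EB libraries lie at 0.144 and 0.171 and the other 18 between 0.762 and 1.56; the ratio is not corrected for transcript length, so only its differences between libraries are read.

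Among the desmosome genes, Dsp and Dsc2 rose with the keratin pair in the WT EBs, while in the KO EBs Dsp fell, as Krt8 did, and Dsc2 did not pass. Dsp, the plaque protein that holds the filaments, was 1570 and 1341 in WT day 0, 3487 and 4381 in WT day 4, 950 and 950 in KO day 0, and 629 and 407 in KO day 4. It rose in WT (log2 fold change 1.43 ± 0.16, adjusted p = 2.07e-06), fell in KO (-0.91 ± 0.16, adjusted p = 0.000174), and was 7.59-fold lower in KO than in WT at day 4. Dsc2 was 101 and 87.2 in WT day 0, 516 and 458 in WT day 4, 173 and 163 in KO day 0, and 149 and 158 in KO day 4. Its WT rise was 5.17-fold (2.36 ± 0.14, adjusted p = 3.84e-09), and in KO the log2 fold change was -0.13 ± 0.14 (adjusted p = 0.439). The difference between the KO and WT changes was -2.34 ± 0.22 for Dsp (adjusted p = 9.49e-07) and -2.49 ± 0.20 for Dsc2 (adjusted p = 1.94e-07).

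The other desmosome genes each took a course of their own. Dsg2, the desmoglein of simple epithelia, lay between 1318 and 1461 in the 4 WT libraries, and fell in KO from 1698 and 1797 to 1055 and 944 (-0.81 ± 0.08, adjusted p = 1.14e-06). Pkp2 was 1612 and 1696 in WT day 0 and 2072 and 1836 in WT day 4, a log2 fold change of 0.24 ± 0.10 that did not pass (adjusted p = 0.0543) but did in 5 of the 13 alternatives (0.24 to 0.31, adjusted p down to 0.012). In KO it rose from 716 and 787 to 2750 and 2174 (1.70 ± 0.10, adjusted p = 5.39e-09), the opposite direction to Dsp and Dsg2 in the same libraries. Jup, which also serves adherens junctions, fell under both labels: from 4677 and 4662 to 3285 and 2938 in WT (-0.59 ± 0.07, adjusted p = 3.86e-06) and from 4902 and 4820 to 3118 and 2997 in KO (-0.67 ± 0.07, adjusted p = 1.30e-06). For Jup the interaction did not pass, and its groups at day 4 overlapped.

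Krt7 and Krt19 rose under both labels from unequal starting levels. Krt7 was 210.3 and 210.8 in WT day 0, 389 and 255 in WT day 4, 45.8 and 41.1 in KO day 0, and 118 and 105 in KO day 4. Its KO rise was 1.34 ± 0.19 (adjusted p = 3.20e-05). Its WT rise was 0.58 ± 0.19 (adjusted p = 0.0163), and this call was lost without WT day 0 replicate 1 (0.58), WT day 0 replicate 2 (0.58) or WT day 4 replicate 1 (0.27), with adjusted p up to 0.236 over 13 alternatives. Krt19 was 154 and 157 in KO day 0 and 478 and 369 in KO day 4, a rise of 1.43 ± 0.17 (adjusted p = 5.73e-06) that did not differ from the WT rise beyond the error (interaction -0.40 ± 0.24, adjusted p = 0.173), though it did without WT day 4 replicate 2 (-0.69, adjusted p = 0.0411). Krt20, an intestinal type keratin, was low, with 5 to 19 recovered reads per library. Its WT change (-0.29 ± 0.45, adjusted p = 0.586) and its interaction (1.45 ± 0.64, adjusted p = 0.067) did not pass. With the replicate block the interaction did (adjusted p = 0.049). Krt20 was called higher at day 4 in KO (1.16 ± 0.45, adjusted p = 0.039), and that call was lost without KO day 0 replicate 1 (1.29), KO day 0 replicate 2 (1.03) or KO day 4 replicate 1 (0.64), with no filter (adjusted p = 0.0642), with only the 2 groups compared (adjusted p = 0.0599), by quantile normalization (0.80, adjusted p = 0.154) and by DESeq2 (adjusted p = 0.133).

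In all, 9 of the 10 genes were called between the days in KO, 5 higher and 4 lower, and Dsc2 did not pass, where 60% of genes tested were called (29.1% higher, 30.9% lower). The interaction was called for 7 of 10, against 55.7% of genes tested (27.1% higher, 28.6% lower): lower in KO for Krt8, Krt18, Dsc2, Dsp and Dsg2 (-0.79 ± 0.11), and higher for Pkp2 (1.46 ± 0.14) and Krt7 (0.76 ± 0.27, adjusted p = 0.0265). The Krt7 interaction was lost with no filter (adjusted p = 0.0515), by quantile normalization (0.62) and by DESeq2 (0.75), and without WT day 0 replicate 1 (0.76), WT day 0 replicate 2 (0.76), WT day 4 replicate 2 (0.46), KO day 0 replicate 2 (0.69) or KO day 4 replicate 1 (0.68), with adjusted p up to 0.139.

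Before differentiation the labels already differed, in a different pattern. At day 0 in stem cells, 9 of the 10 genes were called between KO and WT, where 67.2% of genes tested were called (33.9% higher, 33.3% lower). Krt7 (-2.25 ± 0.19), Krt19 (-1.42 ± 0.17), Krt20 (-1.45 ± 0.45), Pkp2 (-1.14 ± 0.10) and Dsp (-0.61 ± 0.16) were lower in KO. Dsc2 (0.83 ± 0.14), Krt18 (0.47 ± 0.09), Krt8 (0.33 ± 0.09) and Dsg2 (0.33 ± 0.08) were higher. Krt8 was thus 1.25-fold higher in KO stem cells (adjusted p = 0.00491), a call lost without WT day 0 replicate 1 (0.21), and far lower in KO EBs. The Krt20 call was lost without WT day 0 replicate 1 (-1.40) or KO day 0 replicate 2 (-1.32), by quantile normalization (-0.95) and by DESeq2 (-1.61). At day 4, 8 of 10 were called, against 56.2% of genes tested (27.8% higher, 28.4% lower): 7 lower in KO and Pkp2 higher (0.33 ± 0.10, adjusted p = 0.0137). The Pkp2 call was lost without WT day 4 replicate 2 (0.24) or KO day 4 replicate 1 (0.16), and with equal totals (0.23). Krt19 was 3.58-fold, Dsc2 3.17-fold, Krt7 2.89-fold and Dsg2 1.37-fold lower in KO EBs.

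Markers of several embryonic cell types also differed between the days and labels, and neither the lists nor the members all went 1 way. The summed level of 11 extraembryonic endoderm markers, a tissue in which Krt8 and Krt18 are strongly expressed, was 725 to 793 in WT day 0, 13230 to 14700 in WT day 4, 644 to 656 in KO day 0 and 507 to 561 in KO day 4. All 11 were called higher in WT at day 4 and all 11 were called lower in KO than in WT at day 4, in comparisons that share the WT day 4 libraries (32.3% of genes tested were higher in WT at day 4, and 28.4% lower in KO). Among them Afp was 1757 and 1277 in WT day 4 and 2.26 and 0.986 in KO day 4, and Ttr was listed at 621 and 435 in WT day 4 and at 0 and 0.986 in KO day 4. The 7 primitive streak and mesoderm markers summed to 4547 to 7859 in WT day 4 and 746 to 761 in KO day 4, and the 7 trophoblast markers in the table, out of 8 listed, to 7246 to 10570 and 2017 to 2341. The 7 fibroblast markers summed to 3445 to 4643 in WT day 4 and 354 to 508 in KO day 4. By their sums, some other lists overlapped between the labels at day 4 and some did not. The cardiac muscle markers summed to 441 to 502 in WT and 219 to 238 in KO, lower in KO. Sums were higher in KO for the duct markers (22810 to 24490 in WT, 25780 to 27120 in KO) and the immune markers (610 to 811 in WT, 1009 to 1305 in KO). The acinar sum was higher in KO too (153 to 167 in WT, 432 to 505 in KO). The 6 surface ectoderm markers summed to 488.7 to 585.3 in WT and 444.5 to 537.6 in KO, which overlapped. The sums of the 6 endothelial markers, 3447 to 5583 and 3449 to 3511, overlapped too, but do not show the single members. Of these 6, 4 were called lower and 2 higher in KO (28.4% and 27.8% of genes tested). Their median log2 fold change was -3.42, beside -0.01 for all genes tested. Between the days in KO the endoderm sum did not rise, while Krt7, Krt18, Krt19 and Pkp2 did. The 7 pluripotency markers went the other way: they summed to 144400 to 145600 in WT day 0, 44620 to 46770 in WT day 4, 132100 to 137300 in KO day 0 and 81470 to 85190 in KO day 4. All 7 fell in WT, and KO against WT at day 4, 5 were called higher (27.8% of genes tested) and Nanog lower. In bulk RNA, fewer cells of a type and less RNA per cell cannot be told apart, and the part of these markers in the keratin and desmosome results was not tested. Cdh1, the epithelial cadherin of adherens junctions, was 15178 and 15090 in WT day 4 and 13793 and 12569 in KO day 4 (-0.20, adjusted p = 0.0249). Vim, the type III filament gene of mesenchymal cells, was 3193 and 4173 in WT day 4 and 530 and 448 in KO day 4 (-2.90, adjusted p = 6.55e-11).

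In the PDA cells, TGFβ was accompanied by higher desmosome transcripts in the WT libraries, while of Krt7, Krt8, Krt18 and Krt19 only Krt18 passed, with a lower level. Dsp was 7460 and 7237 under SB and 18584 and 18607 under TGFβ. Dsg2 was 862 and 765 under SB and 1903 and 1862 under TGFβ. Jup was 2862 and 4145 under SB and 9814 and 9760 under TGFβ. None of these groups overlapped, though the SB libraries of Jup lay far apart: Dsp rose 2.53-fold (log2 fold change 1.34 ± 0.06, adjusted p = 5.59e-06), Dsg2 2.31-fold (1.21 ± 0.09, adjusted p = 5.35e-05) and Jup 2.79-fold (1.51 ± 0.19, adjusted p = 0.000975). Dsc2 rose from 308 and 284 to 528 and 512 (0.81 ± 0.22, adjusted p = 0.0235), and this call was lost when any 1 of the 4 libraries compared was left out (0.75 to 0.87, adjusted p up to 0.132). Pkp2 was 1770 and 1496 under SB and 1703 and 1657 under TGFβ, with overlapping groups (0.05 ± 0.09, adjusted p = 0.734).

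**Figure D3:**
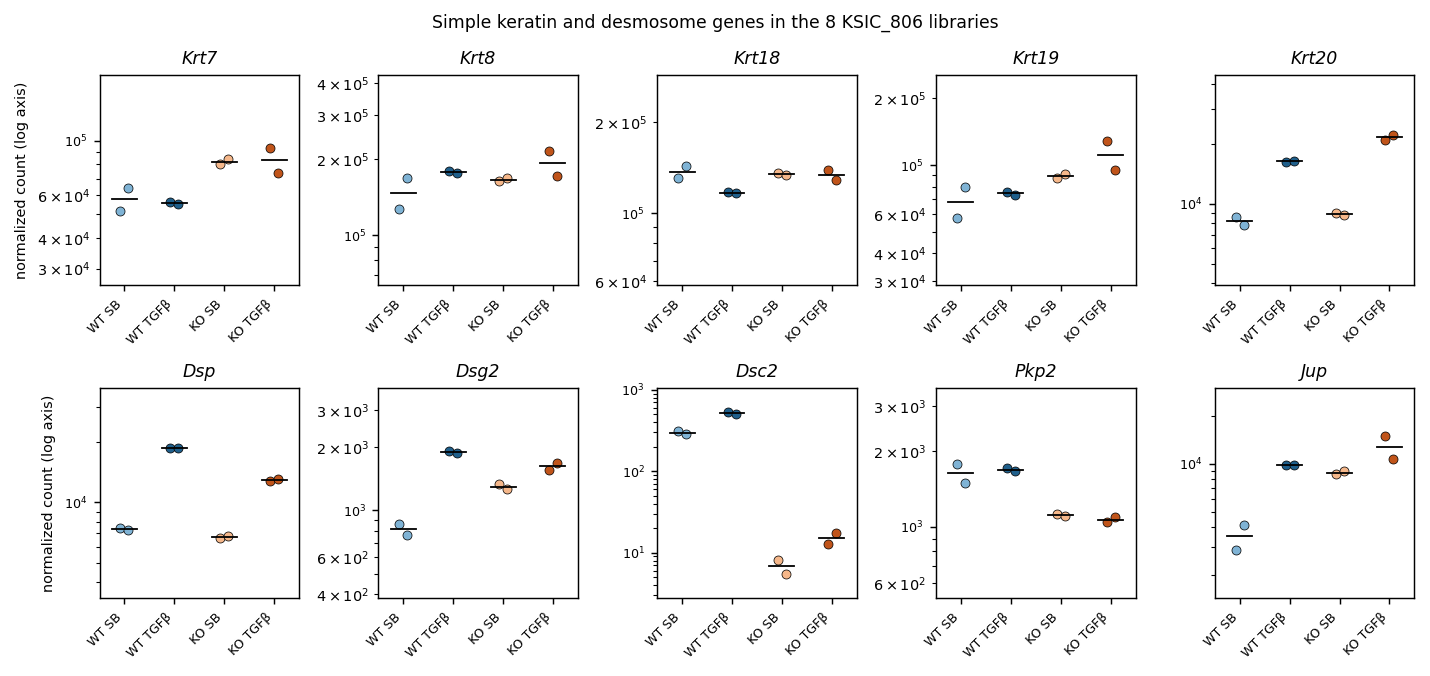
Normalized count (log axis, its range set per gene) of each of the 10 genes in the 8 PDA libraries, by label and treatment; points are libraries and bars are means of 2. Dsp, Dsg2, Jup and Krt20 lie higher under TGFβ than under SB in the WT libraries, and Dsc2 lies between 5.51 and 17.3 in the KO libraries against 284 to 528 in the WT libraries.

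Among the keratins of the WT PDA cells, only Krt20 passed the test with a higher level under TGFβ, at 8567 and 7826 under SB and 16308 and 16427 under TGFβ (2-fold, log2 fold change 1.00 ± 0.07, adjusted p = 4.47e-05). Krt18 was 130481 and 142607 under SB and 117423 and 116516 under TGFβ, a log2 fold change of -0.22 ± 0.07 just past the threshold (adjusted p = 0.047). It no longer passed without WT SB replicate 2 (-0.16), WT TGFβ replicate 1 (-0.23) or WT TGFβ replicate 2 (-0.22), nor in 6 other alternatives: quantile normalization (-0.06, adjusted p = 0.42), only the 2 groups compared (0.153), no filter (0.115), the replicate block (0.0978), equal totals (-0.18, adjusted p = 0.0904) and DESeq2 (0.0876). It passed in 4 of the 13 alternatives. Krt8 was 127208 and 168164 under SB and 180754 and 176134 under TGFβ (0.29 ± 0.15, adjusted p = 0.17), and it passed without WT SB replicate 2 (0.49) and by quantile normalization (0.59). Krt7 was 51441 and 64296 under SB and 56464 and 55037 under TGFβ, and Krt19 was 57587 and 79385 under SB and 76033 and 73636 under TGFβ, with overlapping groups for both. For Krt7, Krt8, Krt19 and Jup, WT SB replicate 1 was the lower of the pair by more than the WT TGFβ libraries differed. In this comparison 6 of the 10 genes were called, 5 higher and 1 lower, against 36.9% of the 13226 genes tested (19.4% higher, 17.6% lower). The 6 fibroblast markers in the table summed to 73.9 to 91.8 in WT SB and 389 to 434 in WT TGFβ, and in KO to 130.3 to 135 and 410.1 to 426, and their part in these results was not tested.

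In the KO PDA cells the TGFβ differences of Dsg2, Dsp and Jup were smaller. Dsg2 was 1328 and 1263 under SB and 1560 and 1675 under TGFβ (0.32 ± 0.09, adjusted p = 0.0213), a call lost without KO SB replicate 1 (0.36), KO SB replicate 2 (0.28) or KO TGFβ replicate 2 (0.27), with adjusted p up to 0.132. Dsp was 6648 and 6823 under SB and 12746 and 13110 under TGFβ (0.94 ± 0.06, adjusted p = 2.24e-05). Jup was 8573 and 8952 under SB and 14943 and 10696 under TGFβ, which did not pass (0.53 ± 0.19, adjusted p = 0.0654) but did without KO TGFβ replicate 2 (0.77), with equal totals (0.64, adjusted p = 0.0333), by quantile normalization (0.61, adjusted p = 0.0473), by DESeq2 (0.55, adjusted p = 0.00576) and with the crossed replicate block (adjusted p = 0.0122). Krt20 was 9003 and 8801 under SB and 20976 and 22310 under TGFβ (1.28 ± 0.07, adjusted p = 1.27e-05), and this rise was 2.43-fold. Krt7, Krt8, Krt18, Krt19 and Pkp2 did not pass in the KO cells, and of these only Krt18 had passed in WT. With Dsc2 (below 20 in each KO library) 4 of the 10 were called, all higher, against 38.7% of genes tested (20.6% higher, 18% lower).

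**Figure D4:**
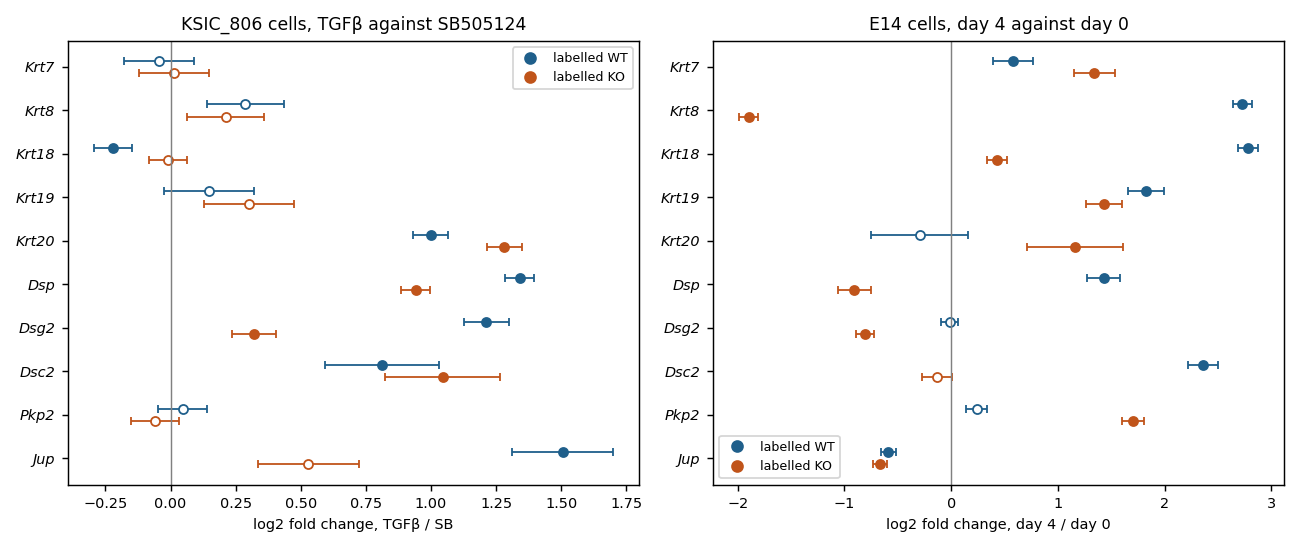
Log2 fold change with its SE (limma) of each gene for TGFβ against SB in the PDA cells (left) and day 4 against day 0 in the E14 cells (right), in libraries labelled WT (blue) and KO (orange); filled points have adjusted p under 0.05. In the PDA cells Dsg2 is at 1.21 in WT and 0.32 in KO, and in the E14 cells Krt8 is at 2.73 in WT and -1.90 in KO.

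Tested directly, the KO response to TGFβ differed from the WT response for 3 of the 10 genes, all smaller in KO, where 21.8% of genes tested were called (9.71% higher, 12.1% lower). The difference was -0.89 ± 0.12 for Dsg2 (adjusted p = 0.00364), -0.40 ± 0.08 for Dsp (adjusted p = 0.0136) and -0.98 ± 0.27 for Jup (adjusted p = 0.0413). Dsg2 passed in each of 16 alternatives. The count ran from 1 to 4 when single libraries were left out, and it was 1, with Dsp lost as well as Jup, without WT TGFβ replicate 1 (Dsp -0.40), WT TGFβ replicate 2 (-0.40), KO SB replicate 1 (-0.42) or KO SB replicate 2 (-0.38). The adjusted p of Dsp reached 0.082 and that of Jup 0.135, and Jup passed in 6 of the 16. For Krt20 the difference was 0.28 (adjusted p = 0.0733), and it passed with equal totals (0.35), by quantile normalization (0.34) and without WT SB replicate 2 (0.35).

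Between the labels of the PDA cells, Dsc2 differed more than the other 9 genes. In KO it was 8.05 and 5.51 under SB and 12.7 and 17.3 under TGFβ, against the WT values of 284 to 528 given above, which is 43.7-fold lower under SB and 34.7-fold lower under TGFβ (log2 fold changes -5.27 ± 0.22 and -5.04 ± 0.22, adjusted p = 2.01e-06 and 2.60e-06). The KO values rest on 4, 6, 14 and 19 recovered reads. From these few reads Dsc2 was still called higher under TGFβ in KO (1.04 ± 0.22, adjusted p = 0.00795), but not by DESeq2 (adjusted p = 0.0719) or with only the 2 groups compared (adjusted p = 0.0597). Only 54 of the 13226 genes tested had a lower fold change than Dsc2 between KO and WT under SB. Dsc2 in the E14 stem cells went the other way at day 0, where it was higher in KO.

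Other members differed between the PDA labels by less than 3-fold. Under SB, Jup was 2.5-fold higher in KO (1.35 ± 0.19, adjusted p = 0.000777) and Dsg2 1.59-fold higher (0.67 ± 0.09, adjusted p = 0.000416), while Pkp2, at 1120 and 1106 in KO under SB and 1046 and 1092 under TGFβ, was 1.47-fold lower (-0.55 ± 0.09, adjusted p = 0.00169). Krt7 in KO was 80146 and 84304 under SB and 93142 and 73855 under TGFβ, higher than in WT under SB (0.52 ± 0.13, adjusted p = 0.0127) and under TGFβ (0.57 ± 0.13, adjusted p = 0.0113). The first Krt7 call did not hold without WT SB replicate 1 (0.35) or KO SB replicate 2 (0.48) or with equal totals (0.36, adjusted p = 0.0507), the second without WT TGFβ replicate 1 (0.59) or WT TGFβ replicate 2 (0.55). Under SB 5 of the 10 were called, 3 higher and 2 lower, against 56.2% of genes tested (28.9% higher, 27.2% lower). Under TGFβ 6 were called, against 40.2% of genes tested (21.2% higher, 19% lower): Krt20 (0.40 ± 0.07), Krt7 and Krt19 higher, and Dsc2, Pkp2 (-0.65 ± 0.09) and Dsp (-0.52 ± 0.06) lower. Krt19 in KO was 87415 and 91632 under SB and 127867 and 95040 under TGFβ, and its call under TGFβ (0.56 ± 0.17, adjusted p = 0.0353) was lost without WT TGFβ replicate 1 (0.58), WT TGFβ replicate 2 (0.54) or KO TGFβ replicate 1 (0.35), with no filter (adjusted p = 0.0619), with equal totals (0.48, adjusted p = 0.0622), by quantile normalization (0.37, adjusted p = 0.164) and with the replicate block (adjusted p = 0.0637). Krt8 in KO was 163856 and 168773 under SB and 216546 and 171278 under TGFβ, and Krt18 was 135357 and 133493, then 138727 and 128302, and neither passed against WT under either treatment. Krt8 passed under SB without WT SB replicate 2 (0.39) and Krt18 under TGFβ by quantile normalization (0.17). Dsp under SB (-0.13) and Dsg2 under TGFβ (-0.22) did not pass, but did with equal totals (-0.28 and -0.30). Krt19 under SB (0.40 ± 0.17, adjusted p = 0.0806) did not pass, but did by DESeq2 (0.39, adjusted p = 0.0284). It passed without WT SB replicate 2 as well (0.64). Jup under TGFβ (0.37 ± 0.19, adjusted p = 0.17) did not pass, but did without KO TGFβ replicate 2 (0.61).

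Keratins that belong to stratified epithelia also differed between the PDA labels. Of 15 other keratin genes listed, 9 were tested, and 7 were higher and 1 lower in KO under SB (28.9% and 27.2% of all genes tested), with a median log2 fold change of 1.54 beside -0.00293 for all genes tested. Krt14, a basal layer keratin, was 128 and 170 in WT SB and 2476 and 2588 in KO SB (4.10, adjusted p = 1.77e-06). The summed level of the 5 surface ectoderm markers in the table (6 listed, Krt5 and Krt14 among the list) was 162 to 545 in the WT libraries and 2587 to 6785 in the KO libraries. Under SB that sum was mostly Krt14 itself, as the whole list summed to 162 to 196 in WT and 2587 to 2724 in KO. The sum is therefore not a result apart from Krt14, and Trp63 was at 0 in KO SB. Of 4 tested under SB, 3 were higher in KO and Tfap2a was lower (-2.23, adjusted p = 0.00777). The 11 extraembryonic endoderm markers summed to 6251 to 9244 in WT and 16870 to 21960 in KO, and the part of either list in the member results was not tested. Of 8 plakins and other keratin linkers, 6 rose and none fell with TGFβ in WT (19.4% and 17.6% of all genes tested), with a median log2 fold change of 0.51 beside 0.00159 for all genes tested. In KO 2 rose and 2 fell (20.6% and 18% of all genes tested), with a median of 0.0108 beside 0.0229. Evpl, envoplakin, was 143 and 286 in WT SB and 987 and 897 in WT TGFβ (2.21, adjusted p = 0.00172). Dst, which ties filaments to hemidesmosomes and other sites, rose in WT (0.51, adjusted p = 0.000391) and fell in KO (-0.57, adjusted p = 0.000202). Of 6 adherens junction genes tested, 5 rose and 0 fell with TGFβ in WT, and 2 rose and 0 fell in KO. Of 9 epithelial regulators tested, 5 rose and 1 fell in WT, and 3 rose and 2 fell in KO. The shares of all genes tested were those just given, 19.4% and 17.6% in WT and 20.6% and 18% in KO. Of 11 other desmosome genes listed 5 were tested, and with TGFβ 3 rose and none fell in WT (19.4% and 17.6% of all genes tested), among them Pkp1 (0.67, adjusted p = 0.00262) and Pkp4 (0.26, adjusted p = 0.0121). In KO 3 rose and 1 fell (20.6% and 18% of all), with Pkp1 at 0.49 (adjusted p = 0.00908) and Pkp4 at 0.46 (adjusted p = 0.000833). The same 11 genes gave 4 tested in the EBs, of which 1 rose and 1 fell in WT at day 4 (32.3% and 30.8% of all genes tested) and 1 rose and 3 fell in KO (29.1% and 30.9%), among them Perp, a desmosome membrane protein (-1.34, adjusted p = 1.09e-08).

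In the organoids, each condition had 1 library, so ratios carry 95% exact counting intervals and no test. Krt19, a keratin of pancreatic ducts, was 35175 under SB and 17801 under TGFβ without doxycycline, and 27971 and 26741 with it. Krt8 was 74098 and 49533 without doxycycline and 55788 and 71866 with it. Krt18 ran beside Krt8, at 65756 and 47157, then 54391 and 65980. All 3 were lower under TGFβ without doxycycline, by log2 ratios of -0.98 (-1.01 to -0.96) for Krt19, -0.58 (-0.60 to -0.56) for Krt8 and -0.48 (-0.50 to -0.46) for Krt18. With doxycycline Krt8 (0.37) and Krt18 (0.28) were higher under TGFβ and Krt19 was near level (-0.06). Krt7 turned in the same way, from -0.36 without doxycycline to 0.51 with it, at 34384 and 26767, then 40298 and 57334.

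**Figure D5:**
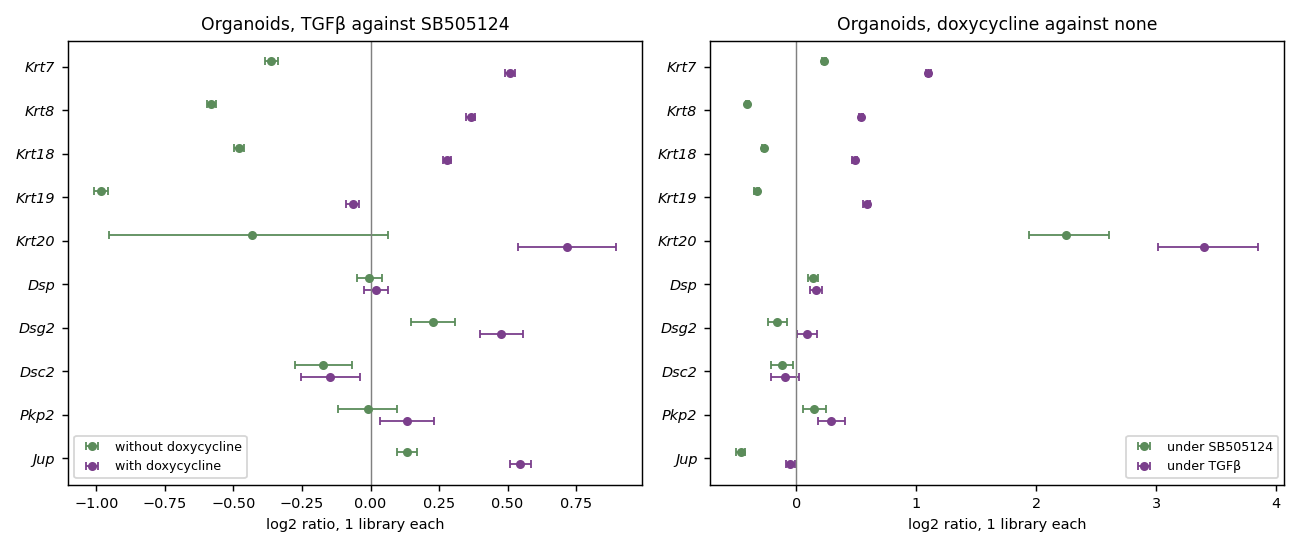
Log2 ratio of each gene between single organoid libraries, TGFβ against SB (left) and doxycycline against none (right); bars are 95% exact counting intervals and leave out the spread between cultures. Krt7, Krt8 and Krt18 lie below 0 without doxycycline and above 0 with it on the left, and Krt20 lies at 2.25 and 3.396 on the right.

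Krt20 showed the widest organoid differences, at 76.9 under SB and 56.7 under TGFβ without doxycycline, and 369 and 607 with it. It was 4.75-fold higher with doxycycline under SB (log2 ratio 2.25, interval 1.94 to 2.60) and 10.5-fold higher under TGFβ (3.396, interval 3.01 to 3.85). The desmosome genes moved less. Dsp was 7437 and 7418 without doxycycline and 8190 and 8301 with it, log2 ratios for TGFβ of -0.00367 (-0.0493 to 0.0419) and 0.0194 (-0.0234 to 0.0622), beside the rise in the WT PDA cells, and the difference between the cultures was not tested. Dsg2 (2241, 2625, 2006 and 2792 in the same order) and Jup (11403, 12497, 8261 and 12066) were higher under TGFβ, most with doxycycline (0.48 and 0.55). Dsc2 (1550, 1375, 1428 and 1290) was a little lower under TGFβ, and Pkp2 lay between 1311 and 1605. No member differed 2-fold between TGFβ and SB, where 6.41% of 13443 genes did without doxycycline and 6.75% with it. Between doxycycline and none 1 did under SB (Krt20) and 2 under TGFβ (Krt20 and Krt7, at 2.14-fold), where 17.5% and 17.4% of genes did.

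Across the 16 replicated libraries, with each table centred on its own mean, the members did not vary as 1 block. Pearson's r was 0.915 between Krt7 and Krt19 (0.906 over the 8 PDA and 0.915 over the 8 E14 libraries), and 0.82 between Dsg2 and Jup (0.857 and 0.735). It was 0.853 between Krt8 and Dsp, from 0.498 in PDA and 0.947 in E14, and 0.727 between Krt8 and Krt18, from 0.023 in PDA and 0.735 in E14. Among 12371 genes the ones most like Krt8 were Kirrel (0.961), Rin3 (0.958) and Tpm1 (0.952), and those most like Krt18 were Afp (0.977), Limd1 (0.976) and Slc25a24 (0.971). For Dsp they were Cttn (0.952), Usp3 (0.944) and Heg1 (0.942), and for Krt19 Gsap (0.972), Tdrd7 (0.96) and Epha1 (0.959). These libraries fall into 8 groups of 2 and share the treatments, so the values describe the pattern over groups and not independent samples.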

How the data were processed

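RNA-seq libraries were prepared from total RNA using a TruSeq kit (RNA Sample Prep, v2), per the labels' protocols. That kit does not mark strand, so reads from overlapping antisense genes cannot be told apart. The deposited values are the authors' normalized read counts per gene (a signal that is not a raw count), in 3 tables normalized separately. FastQC 0.11.5, Bowtie2, HTSeq 0.6.1p1, DESeq2 3.4 and the mm10 build are named in the submitters' processing notes, without roles. In each library 100% of the deposited values were whole reads (tolerance 0.001) after division by 1 factor, and these recovered reads gave depth, counting intervals and count tests.

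Genes with at least 10 in at least 2 of 8 libraries were tested (13226 PDA, 15227 E14) on log2(value + 1) with limma 3.58.1 (R 4.3.3, trend, all 8 libraries in 4 groups of 2). P-values were two-sided and Benjamini-Hochberg adjusted over all genes tested, with a threshold of 0.05. The fold change on this scale understates the change of low genes. The fit recovered planted changes in simulated counts of well-expressed genes with little spread between replicates. That setting does not cover small changes, low counts or the wider spread of some of these libraries. Organoid ratios used genes with a mean of at least 10 and exact 95% intervals that cover counting error only. Alternatives were pseudocounts of 0.5 and 5, no filter, equal totals, quantile normalization, only the 2 groups compared, edgeR 4.0.16 and DESeq2 1.42.0 on recovered reads, a replicate block, and leaving out each library. The crossed block was added after seeing the data.

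All 10 members were tested in every replicated comparison, and values are given for those called and for some that were not. From other lists the counts are given for some lists and comparisons only, with up to 4 called members of the smallest adjusted p. For 4 members the 3 genes with the highest correlation are named, out of 12371 past the filter in both tables. Members and lists were chosen with earlier results of these data known. Exon lengths were not used here, so the Krt8 to Krt18 ratio is not per length as the design had it. Samples of other assays (15 ChIP-seq or input and 1 ATAC-seq) were not used here.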

Additional observations from a re-analysis of the deposited data

Results flagged for a closer look

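Changes that differed between the libraries labelled WT and KO by the interaction test are listed here, as the KO change minus the WT change on the log2 scale (limma). In the PDA response to TGFβ this was -0.89 for Dsg2, -0.40 for Dsp and -0.98 for Jup. Of these Dsg2 alone passed in each of 16 alternatives.

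In the EBs between day 0 and day 4 it was -4.63 for Krt8, -2.49 for Dsc2, -2.35 for Krt18, -2.34 for Dsp, -0.79 for Dsg2, 1.46 for Pkp2 and 0.76 for Krt7. Krt8 and Dsp rose in WT and fell in KO. Pkp2 rose in KO, and in WT its log2 fold change was 0.24 and did not pass. Krt7 passed in 8 of 16 alternatives and the other 6 in all 16. No explanation was tested for any of these.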

How the results depend on the processing

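With 2 libraries per group and low counts for Krt20 in the EBs and Dsc2 in KO PDA cells, small changes could not be resolved. The count of the 10 members called stayed within 1.5 times its value in each comparison and alternative except the PDA interaction, where leaving out 1 library gave 1 to 4. The Krt8 to Krt18 ratio is the same under any single factor per library. With 2 libraries per group, leaving out 1 only returns the ratio of the other (0.144 and 0.171 in KO day 4 EBs), so it is no further check. No ratio per exon length was run.

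Equal totals moved the median of all genes by 0.133 for TGFβ in KO PDA cells, -0.156 for KO against WT under SB and -0.106 for KO against WT EBs at day 4. It took the genes called higher and lower from 2731 and 2382 to 3830 and 1802 for TGFβ in KO PDA cells and from 1284 and 1602 to 1869 and 1388 for the interaction. KO against WT it took them from 3828 and 3600 to 2975 and 4901 under SB, from 2808 and 2508 to 2360 and 3305 under TGFβ, and from 4236 and 4319 to 3428 and 5331 in day 4 EBs. Members not past the threshold changed sign as follows. With equal totals, TGFβ in KO PDA cells gave 0.10 for Krt18 and 0.0518 for Pkp2, KO against WT under SB gave -0.0333 for Krt20, the WT EB change gave 0.0522 for Dsg2, and KO against WT at day 4 gave -0.087 for Krt20. With quantile normalization, TGFβ gave 0.0826 for Krt7 in WT and 0.17 for Krt18 in KO, which then passed (adjusted p = 0.0407), KO against WT gave -0.0401 for Krt20 under SB and -0.22 for Krt8 under TGFβ, and at day 0 it gave -0.0797 for Jup. edgeR gave -0.0192 for Krt7 under TGFβ in KO and 0.000289 for Krt18 between labels under SB. A pseudocount of 5 gave -0.0415 for the Dsc2 interaction in the PDA cells. The cause was not tested.

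Where 1 library was left out, the other of its group was assumed to vary like the other groups. Over all genes, calls for TGFβ in WT PDA cells then numbered 2254 without WT TGFβ replicate 1 and 2286 without replicate 2 (4887 with both), those in KO 2956 and 3148 without KO SB replicate 1 or 2 (5113 with both), and KO against WT under TGFβ 3212 and 3266 without WT TGFβ replicate 1 or 2 (5316 with both). For the PDA interaction they numbered 764 and 827 without WT TGFβ replicate 1 or 2, and 940 and 1188 without KO SB replicate 1 or 2 (2886 with all). The sign of changes that had not passed turned as well. For TGFβ in WT PDA cells the range was -0.0853 to 0.38 for Krt19, -0.21 to 0.12 for Krt7 and -0.0756 to 0.17 for Pkp2. In KO it was -0.0672 to 0.0455 for Krt18 and -0.15 to 0.18 for Krt7. For the PDA interaction it was -0.00542 to 0.47 for Dsc2, -0.0771 to 0.39 for Krt19, -0.11 to 0.23 for Krt7, -0.28 to 0.13 for Krt8 and -0.23 to 0.0169 for Pkp2. KO against WT gave -0.0853 to 0.0429 for Krt18 and -0.0161 to 0.39 for Krt8 under SB, and -0.059 to 0.28 for Krt8 under TGFβ. In the EBs the WT change ran from -0.0894 to 0.0588 for Dsg2 and -0.74 to 0.15 for Krt20, and KO against WT at day 4 from -0.10 to 0.057 for Jup and -0.51 to 0.52 for Krt20.

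Replicate numbers did not pair the libraries (correlation of deviations between groups -0.506 to 0.144 in PDA, -0.03 to 0.09 in E14). The -0.506 was between WT SB and KO TGFβ, with the other PDA pairs at -0.159 to 0.144, so these 2 groups shared a pattern with the numbers crossed. Krt7, Krt8, Krt19 and Jup were lower in WT SB replicate 1 and in KO TGFβ replicate 2 than in the other library of each group. With the number as a replicate block, 5 members were called for TGFβ in WT PDA cells, 4 in KO, 2 in the interaction and 5 in each label comparison. In the EBs the block gave 8 for the WT change, 9 for KO, 8 for the interaction, 9 at day 0 and 8 at day 4. Over all genes it took the PDA interaction from 2886 to 1596 calls. Crossing the numbers of the KO TGFβ libraries gave 5 members for TGFβ in KO, and took the calls over all genes from 5113 to 6101. Of the single-gene values under these alternatives, 1300 kept their direction and their side of the threshold (or moved by less than their error), 70 no longer passed, 27 passed newly, 37 changed sign and 16 organoid ratios moved by more than their counting interval.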
